A study of Arabidopsis thaliana with 11 samples.

Results

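Mature guard cells were compared with cells of the FAMA stage of the stomatal lineage of Arabidopsis, which are late guard mother cells and young guard cells. The genes described are those with a deposited expression value, given as log2, of at least 10 on the linear scale in 2 or more of the 4 libraries of these groups, and 28108 of the 33602 genes of the table met that rule. Both groups were protoplasts of the Columbia accession, sorted by fluorescence from the aerial parts of 10-day-old seedlings after digestion of the tissue for 2 h. FGF, the FAMA stage, carries FAMAp::GFP-FAMA, a fusion of GFP with FAMA under the FAMA promoter, so that the fusion transcript cannot be told from that of the native gene. E1728G, the mature group, is the enhancer trap line E1728::GFP, and the sources used here do not name the gene near its insertion. Each group had 2 libraries. The other libraries of the series, 2 of the epidermis (ML1Y, ML1p::YFP-RCI2A), 3 of the SPCH stage (SSY, SPCHp::SPCH-YFP) and 2 of the MUTE stage (MG, MUTEp::nucGFP), entered the fit and are given beside the results as a reference. The labels do not say whether libraries of a group came from separate plants or sorts, so p-values measure only the spread between these libraries, which may be technical.

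A stoma is a pore between a pair of guard cells. Basic helix-loop-helix (bHLH) factors act in turn in the lineage: SPCH starts it, MUTE ends the divisions of the meristemoid, and FAMA, acting with ICE1 or SCRM2, stops the division of the guard mother cell and sets guard cell identity. Mature guard cells open the pore by pumping protons out and taking up potassium, and close it, under abscisic acid or carbon dioxide, by releasing anions and potassium.

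The 2 groups were nearly as close to each other as their own libraries were. Over the 28108 genes the root mean square difference, on the log2 scale, was 0.867 between the FGF libraries and 0.95 between the E1728G libraries. Between groups it was 0.705 for FGF replicate 1 and E1728G replicate 2, 0.862 for FGF replicate 2 and E1728G replicate 2, 0.974 for FGF replicate 1 and E1728G replicate 1, and 1.09 for FGF replicate 2 and E1728G replicate 1. The closest pair therefore joined libraries of different groups. E1728G replicate 1 stood over 2 log2 units above each of the other 3 libraries in 429 genes, against 245 genes for FGF replicate 2, 76 for FGF replicate 1 and 46 for E1728G replicate 2.

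With limma, 3 genes were higher in E1728G (0.0107% of the genes described) and none was lower (0%), at a Benjamini-Hochberg adjusted p under 0.05. At an unadjusted p under 0.05 there were 513 higher (1.83%) and 521 lower genes (1.85%), together 1034 (3.68%). The mean difference was at least 1 log2 unit in size in 3283 genes (11.7%) and at least 2 in 298 (1.06%). In 4521 genes (16.1%) both E1728G libraries lay above both FGF libraries, and in 4495 (16%) both lay below. An exact permutation test of 2 against 2 libraries cannot give a p below 0.333, so the test rests on a spread estimated over all 11 libraries. A limma fit of the 4 libraries alone called 0 genes, with 1122 at an unadjusted p under 0.05, as did a fit without SSY, with 1374. Leaving out E1728G replicate 2 raised the higher calls to 79, leaving out FGF replicate 2 ended all 3, and leaving out FGF replicate 1 gave 13 lower calls.

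**Figure D1:**
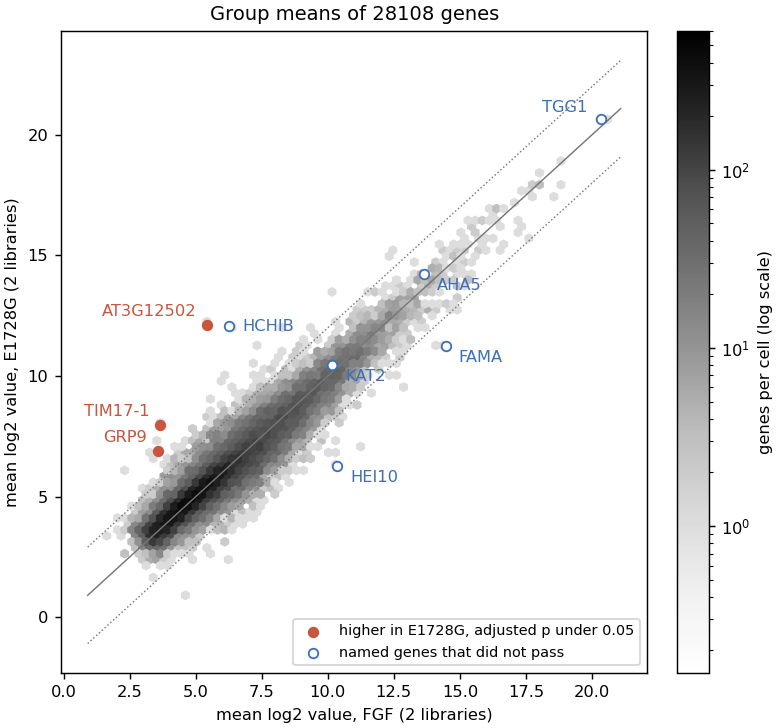
Mean log2 value of each of the 28108 genes in FGF (horizontal axis) and E1728G (vertical axis), with the number of genes per cell in grey on a log scale, equal means as a solid line and differences of 2 log2 units as dotted lines. The 3 genes past the test (red) stand above the upper dotted line, TGG1, AHA5 and KAT2 lie close to the line of equal means, and FAMA and HEI10, which did not pass, lie below the lower dotted line.

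The genes called higher in E1728G, in the fit of all 11 libraries, were TIM17-1, GRP9 and AT3G12502, whose reads cannot be told from those of an overlapping gene. TIM17-1 (AT1G20350) encodes a subunit of the translocase that imports proteins across the inner mitochondrial membrane. Its log2 values were 3.502 and 3.800 in FGF and 7.31 and 8.65 in E1728G. The groups were far apart, and FGF lay at the level of the other stages, whose means were 4.24 in ML1Y, 3.39 in SSY and 3.46 in MG. The log2 difference was 4.33 ± 0.50 (SE; 20.14-fold; limma adjusted p = 0.00585). TIM17-1 was also higher in E1728G than in MG (4.53 ± 0.50, adjusted p = 0.00227), SSY (4.59 ± 0.45, adjusted p = 0.000498) and ML1Y (3.74 ± 0.50, adjusted p = 0.00169), comparisons that share the E1728G libraries. The adjusted p of the difference from FGF became 0.106 without FGF replicate 2, 0.124 without SSY and 0.845 in the 4 libraries alone.

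GRP9 (AT2G05440) encodes a glycine-rich protein. It read 3.53 and 3.58 in FGF and 6.55 and 7.23 in E1728G, again without overlap. The log2 difference was 3.34 ± 0.45 (10.1-fold; limma adjusted p = 0.0265). The means of the other groups, 3.75 in ML1Y, 3.86 in SSY and 3.67 in MG, were near that of FGF. Among its call's 15 alternative settings GRP9 passed in 5, and among the 4 fits that each left out a library it passed only without E1728G replicate 2 (adjusted p = 0.0462). Without FGF replicate 2 the adjusted p was 0.262.

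AT3G12502 is annotated as a non-coding RNA on the opposite strand of HCHIB (AT3G12500), a basic chitinase, and overlaps it. No source used here says whether reads were counted by strand, so those of the pair cannot be told apart. AT3G12502 read 5.70 and 5.15 in FGF and 13.53 and 10.72 in E1728G, a log2 difference of 6.70 ± 0.76 (104-fold; limma adjusted p = 0.00585), and without FGF replicate 2 its adjusted p was 0.135. HCHIB read 6.43 and 6.11 in FGF and 13.47 and 10.68 in E1728G. Its difference of 5.81 ± 0.88 did not pass (adjusted p = 0.0733), and it passed without E1728G replicate 2 (adjusted p = 0.00565). In ML1Y, SSY and MG the means of HCHIB were 5.94, 5.73 and 6.86.

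Relatives of the genes that passed were read next, from lists chosen after values were seen. TIM13, a small chaperone of the mitochondrial intermembrane space, read 5.24 and 3.75 in FGF and 6.79 and 7.81 in E1728G (2.81 ± 0.63, limma adjusted p = 0.473). TIM17-2, a second copy of the TIM17 subunit, read 10.83 and 11.48 in FGF and 9.81 and 10.08 in E1728G, where both libraries lay below FGF. Of the 12 inner membrane import genes, TIM17-1 was the only one that passed, and the median difference over the 12 was 0.19, against -0.01 over all genes described. Whether reads were shared between the TIM17 copies was not tested. The neighbours of GRP9 did not pass: GRP3, which encodes a glycine-rich wall protein, read 9.33 and 9.28 in FGF and 10.61 and 9.79 in E1728G.

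Among defence genes, PR4, a chitin-binding pathogenesis-related protein, read 3.01 and 3.65 in FGF and 7.16 and 6.11 in E1728G (3.30 ± 0.62, limma adjusted p = 0.224). RALFL22 (AT3G05490), a peptide of the rapid alkalinization factor family, read 3.12 in both FGF libraries and 7.63 and 5.997 in E1728G (3.69 ± 0.66, adjusted p = 0.179). Both showed a gap between the groups and neither passed. In RALFL22 both FGF libraries lay below the minimum of 10 on the linear scale. A gene so low in FGF is described only if both E1728G libraries reach that minimum. The lack of overlap in RALFL22 therefore follows from the rule, though the size of its difference does not. PR4 lay below the minimum in FGF replicate 1 only. Without E1728G replicate 2 the difference of RALFL22 was 4.51. The pathogenesis-related genes PR1, BGL2 and PR5 differed by 0.94, 0.44 and -0.10 on the log2 scale.

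**Figure D2:**
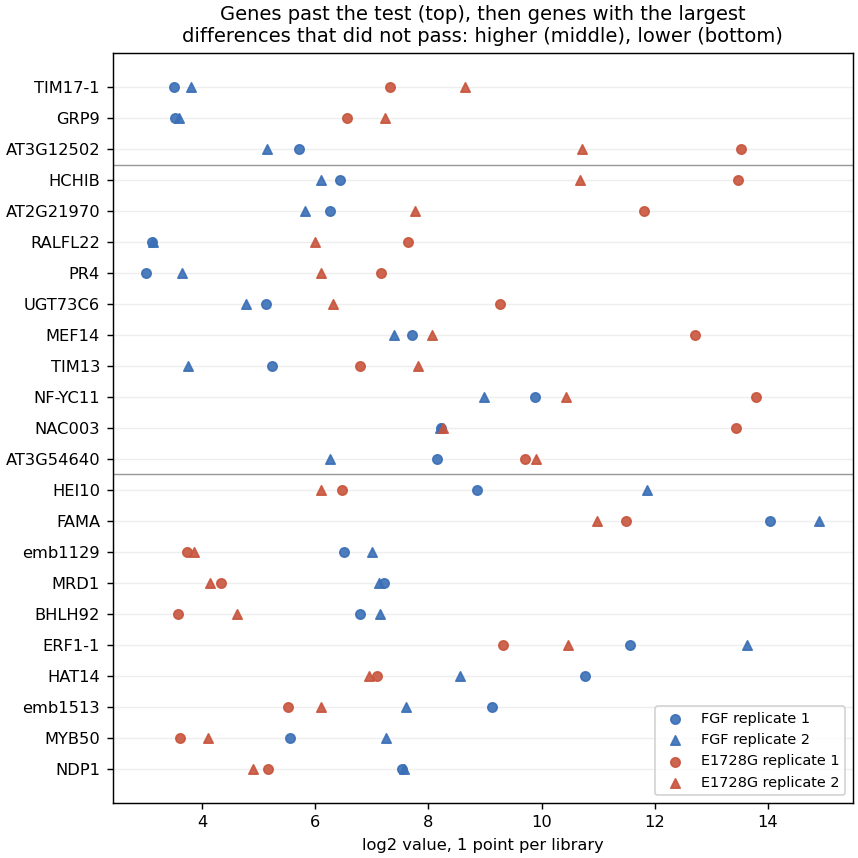
Log2 value in each of the 4 libraries (points, blue for FGF, red for E1728G, circles for replicate 1, triangles for replicate 2) of the 3 genes past the test and of the 10 genes in each direction with the largest differences that did not pass. The groups do not overlap in any of these genes, which the rule required of the genes that did not pass, and in NAC003, MEF14 and NF-YC11 the difference comes mainly from E1728G replicate 1.

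Of the other genes with large positive differences, several were high in 1 E1728G library. NAC003, a NAC domain factor, read 8.22 and 8.20 in FGF and 13.43 and 8.26 in E1728G, and passed only when E1728G replicate 2 was left out (limma adjusted p = 0.0462). MEF14 (7.72 and 7.39 in FGF) read 12.72 in E1728G replicate 1 and 8.07 in replicate 2, and likewise passed only without the latter (adjusted p = 0.04). NF-YC11, a subunit of the NF-Y factor, read 13.80 and 10.43 against 9.88 and 8.99 in FGF. It overlaps AT3G12490 on the opposite strand, and MEF14 overlaps AT3G26775 on the opposite strand and AT3G26782 on the same strand. Where such genes overlap, their reads cannot be told apart here either. AT3G54640, the alpha chain of tryptophan synthase, was more even, at 9.70 and 9.90 against 8.16 and 6.27 in FGF.

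No gene fell past the threshold. The gene that came nearest was AT4G21920, an uncharacterized protein named here after its values were seen. It read 6.37 and 6.08 in FGF and 2.26 and 2.84 in E1728G, a log2 difference of -3.68 ± 0.57 (limma adjusted p = 0.0733). Both E1728G values of AT4G21920 lay below the minimum of 10 on the linear scale, so under the rule its groups could not overlap. AT4G21920 was also low in ML1Y, SSY and MG, with means of 3.18, 3.03 and 1.45. It passed in the fit with 1 added on the linear scale (adjusted p = 0.0376) and without E1728G replicate 2 (adjusted p = 0.04).

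HEI10, a RING protein of meiotic crossovers, read 8.86 and 11.86 in FGF and 6.46 and 6.09 in E1728G (-4.08 ± 0.88, limma adjusted p = 0.392). For HEI10 the difference was -5.58 without FGF replicate 1, where it passed (adjusted p = 0.046), and -2.58 without FGF replicate 2 (adjusted p = 1). MRD1, which overlaps HEI10 on the opposite strand, read 7.22 and 7.12 in FGF and 4.33 and 4.13 in E1728G (-2.94 ± 0.60, adjusted p = 0.298). Their reads cannot be told apart without strand either. The factor BHLH92 read 6.78 and 7.14 in FGF and 3.57 and 4.61 in E1728G, MYB50 read 5.55 and 7.25 and then 3.61 and 4.11, and the homeodomain factor HAT14 read 10.77 and 8.56 and then 7.10 and 6.95. None of these passed with all libraries.

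A cluster of 4 uncharacterized genes, also named after their values were seen, was low in E1728G: AT1G25112, AT1G24851, AT1G25180 and AT1G25025 differed by -2.93, -3.01, -2.88 and -2.46. Their reference transcripts are 99.2% to 100% identical where they align, so the authors' counting may have split the same reads among them, and they count as 1 observation. The lowest of their adjusted p-values was 0.133.

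The stage factors came first among the genes of known role in the lineage. FAMA (AT3G24140) read 14.03 and 14.90 in FGF and 11.50 and 10.98 in E1728G, and both mature libraries lay below both FAMA-stage libraries. The log2 difference was -3.23 ± 0.82 (9.36-fold lower; limma adjusted p = 0.716) and did not pass. The value in FGF includes the transcript of the fusion, by which these cells were sorted, so a high level there follows in part from the design. The mean of FAMA in ML1Y was 8.59, from which FGF differed by 5.88 (adjusted p = 0.0024), while the difference of E1728G did not pass (2.65, adjusted p = 0.122). In SSY and MG the means of FAMA were 11.55 and 10.21. FGF did not pass against SSY (2.915, limma adjusted p = 0.0601) or MG (4.26, limma adjusted p = 0.0645). E1728G differed from SSY by -0.31 and from MG by 1.03, and neither passed.

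ICE1, the partner of FAMA, read 12.37 and 11.29 in FGF and 14.57 and 12.45 in E1728G (1.68 ± 0.84), so the E1728G libraries were higher by a small gap. SCRM2, its close relative, read 8.03 and 6.21 and then 8.39 and 8.03. SPCH read 6.68 and 8.26 in FGF and 5.81 and 6.36 in E1728G (-1.38 ± 0.68), without overlap. Its mean was 6.14 in ML1Y, 6.34 in MG and 5.58 in SSY, the lowest of the 5 groups although SSY carries SPCH-YFP. The name SPCH stage therefore follows the marker line and not the SPCH level. MUTE was low in both groups, at 3.77 and 4.60 in FGF and 4.46 and 4.24 in E1728G, against a mean of 8.75 in MG. Each group was lower in MUTE than MG (FGF by -4.57, adjusted p = 0.0239, and E1728G by -4.41, adjusted p = 0.01, which share the MG libraries). None of these 4 factors passed between FGF and E1728G.

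No gene of the early lineage passed. Of 11 measured members 9 had a negative difference, with a median of -0.51 against -0.01 for all genes described. In 7 of the 11 both E1728G libraries lay below both FGF libraries, against a share of 16% of all genes described. The list was not tested against that share. The receptor-like protein TMM read 9.11 and 8.78 in FGF and 7.67 and 8.54 in E1728G. The receptor kinase ERL1 read 6.85 and 6.86 and then 6.16 and 5.89, and the protease SDD1, which limits stomatal density, read 7.25 and 8.85 and then 6.69 and 6.76. Their means in MG were 12.49 for TMM, 8.22 for ERL1 and 11.73 for SDD1. The peptide genes EPF2 and EPFL9 of the same list were below the minimum in FGF and E1728G.

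A missed threshold does not show that a gene stayed the same, so each difference was also tested against a margin. By 2 one-sided tests with limma's variances, 19240 of the 28108 genes (68.5%) lay within 2 log2 units, or 4-fold, after adjustment over all genes tested. Within 1 log2 unit, or 2-fold, 2507 genes (8.92%) had a 90% interval inside the margin and none passed after adjustment. The median SE of a difference was 0.645. The share within 2 log2 units fell with the level, from 89.2% of 10141 genes with a mean under 5 to 64.8% of 12997 genes from 5 to 8, 35.8% of 4130 genes from 8 to 11 and 35.2% of 840 genes at 11 or more. The count within 2 log2 units rests on all 4 libraries: it was 0 without FGF replicate 1, FGF replicate 2 or E1728G replicate 2, and 5522 without E1728G replicate 1.

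The genes with the smallest p of the test at 2-fold had low values. The exocyst gene EXO70A3 read 4.97 and 4.99 in FGF and 4.80 and 5.17 in E1728G, with a 90% interval of -0.73 to 0.75. MYB106, a factor of trichome and cuticle formation, read 4.51 and 4.62 and then 4.63 and 4.59, with an interval of -0.67 to 0.76. The transformation behind the values is unknown, and its part in the spread of low genes was not tested.

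Transport genes, by which guard cells move the pore, were read next. Of 24 genes for channels, pumps and carriers, 12 had a positive and 12 a negative difference, and the median was 0.03. None passed, as was so for all but 3 of the 28108 genes. Shown to lie within 2 log2 units were 12 of the 24, against 68.5% of all genes described. That share runs from 89.2% of genes with a mean under 5 to 35.8% from 8 to 11 and 35.2% at 11 or more. The list spans these levels, so the 68.5% is no matched reference. The other 12 genes were shown neither to differ nor to be alike. The level of the list summed on the linear scale was 16.73 and 16.50 in FGF and 17.36 and 16.90 in E1728G as log2, and 14.80 to 15.72 in the 7 other libraries. In this sum both groups lay above all other libraries. A linear sum is led by its highest members, such as CHX20 at 16.75 in E1728G replicate 1, and does not describe each gene. Against ML1Y, KAT2 differed by 3.20 in FGF (limma adjusted p = 0.025) and 3.48 in E1728G (limma adjusted p = 0.0146). PIP2;1 differed by -2.48 in each group and did not pass (limma adjusted p = 0.242 in FGF and 0.224 in E1728G).

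The proton pump AHA1 drives the uptake of potassium. It read 13.83 and 14.13 in FGF and 13.93 and 14.02 in E1728G, with a 90% interval of the difference of -1.44 to 1.43. AHA5, another proton pump, read 13.74 and 13.53 and then 14.43 and 14.02, with a 90% interval of -0.72 to 1.90. Its mean in E1728G, 14.22, was higher than that in SSY (by 3.23, limma adjusted p = 0.0261) and in ML1Y (by 3.62, adjusted p = 0.0181), while the difference from MG did not pass (3.39, adjusted p = 0.0574). For AHA5 in FGF the differences from ML1Y, SSY and MG were 3.03, 2.64 and 2.80, with adjusted p of 0.0508, 0.0622 and 0.172. AHA2 read 12.61 and 12.76 in FGF and 12.20 and 12.34 in E1728G, lower without passing.

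The inward potassium channel KAT2 read 10.45 and 9.89 in FGF and 10.63 and 10.26 in E1728G, and the interval of its difference was -0.93 to 1.49. KAT1, its relative, read 6.46 and 8.91 and then 5.84 and 6.57 (-1.48 ± 0.73), with overlap. GORK, the outward potassium channel of stomatal closure, read 9.25 and 6.73 in FGF and 9.21 and 9.14 in E1728G, where FGF replicate 2 stood apart. KAT2 was higher in E1728G, with a mean of 10.45, than in MG, with 7.13 (limma adjusted p = 0.0463), and than in ML1Y (by 3.48, adjusted p = 0.0146), while the difference of KAT2 from SSY did not pass (2.44, adjusted p = 0.0588).

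The anion channel SLAC1, which starts closure, read 10.77 and 9.97 in FGF and 11.80 and 10.02 in E1728G (0.54 ± 0.92). The groups overlapped, and the 90% interval, -1.07 to 2.15, passed the margin of 2. SLAH3, its relative, read 7.70 and 8.80 and then 6.78 and 8.86, and the malate channel ALMT12 read 8.29 and 7.53 and then 6.599 and 8.96. In both genes the E1728G libraries differed from each other by more than the groups did.

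The cation exchanger CHX20, which acts in stomatal opening, read 15.73 and 15.07 in FGF and 16.75 and 15.97 in E1728G (0.96 ± 0.77). CHX20 was higher in E1728G, with a mean of 16.36, than in MG, with 12.26 (limma adjusted p = 0.029), and than in SSY by 3.63 (adjusted p = 0.0188), while the difference of CHX20 from ML1Y did not pass (3.01, adjusted p = 0.0554). The sugar carrier STP1 had the largest negative difference of the list: it read 12.65 and 13.65 in FGF and 10.54 and 12.45 in E1728G (-1.65 ± 0.80, without overlap).

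**Figure D3:**
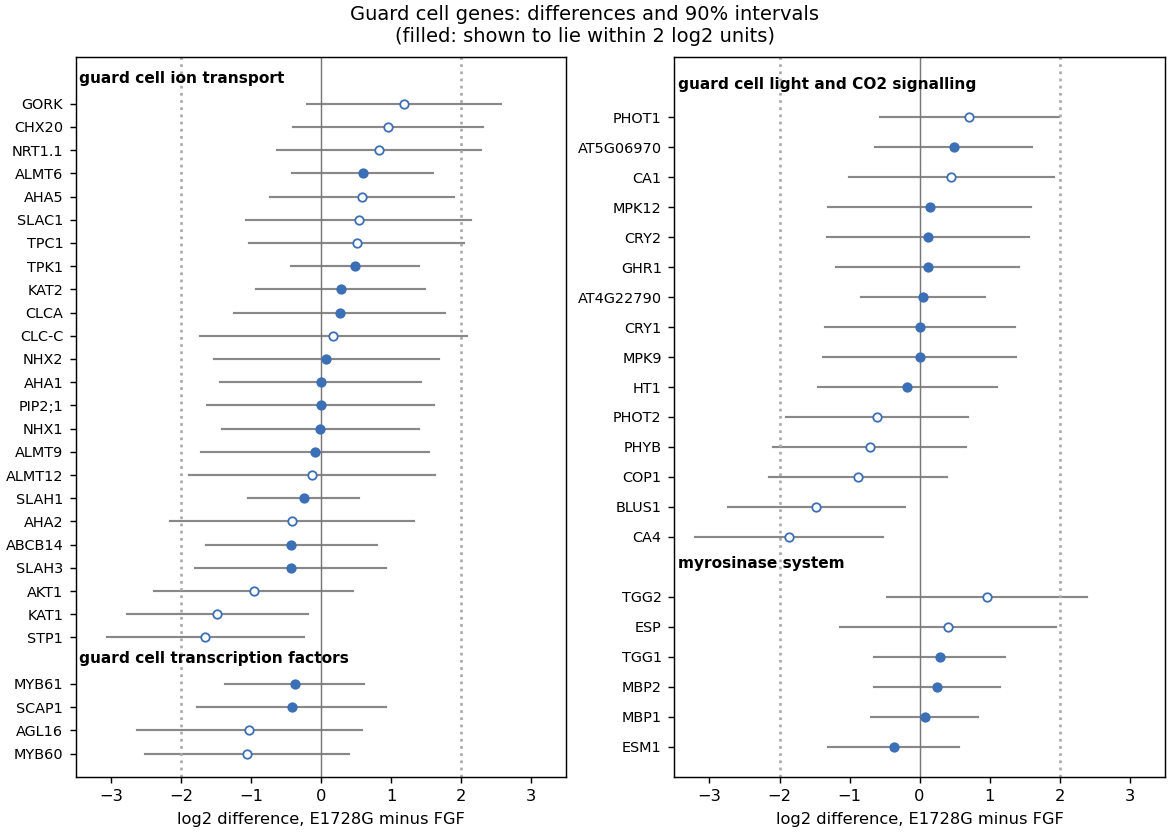
Log2 difference (points) and its 90% interval (lines) of each gene of the lists of ion transport, guard cell transcription factors, light and carbon dioxide signalling, and the myrosinase system, with dotted lines at 2 log2 units. Filled points are genes shown to lie within 2 log2 units: 12 of 24 transport genes, 2 of 4 factors, 8 of 15 signalling genes and 4 of 6 myrosinase genes. Of all genes described 68.5% met that margin, a share that falls with the level.

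The myrosinases, which break down glucosinolates, were abundant in both groups. TGG1 (AT5G26000) read 19.98 and 20.72 in FGF and 20.85 and 20.44 in E1728G, and per kilobase of transcript it had the highest mean of the named genes over the 4 libraries, 19.58. Its difference was 0.29 ± 0.53, with a 90% interval of -0.65 to 1.23. TGG1 was higher than in MG in both groups, by 3.23 in FGF (limma adjusted p = 0.0297) and 3.52 in E1728G (adjusted p = 0.0113), while neither passed against SSY for TGG1 (0.69, adjusted p = 0.497, and 0.98, adjusted p = 0.347). TGG2 read 15.49 and 15.52 in FGF and 16.50 and 16.45 in E1728G, a gap between groups wider than the spread within them, and its difference of 0.97 ± 0.81 did not pass. TGG2 was higher in E1728G than in MG by 4.75 (adjusted p = 0.0194) and did not pass against SSY (2.53, adjusted p = 0.095). The differences of FGF from the same MG libraries did not pass for TGG2 (3.79, adjusted p = 0.0913), KAT2 (3.04, adjusted p = 0.108), CHX20 (3.14, adjusted p = 0.135) or HT1 (3.94, adjusted p = 0.0536), and whether the groups differ in these distances is given by the direct comparison, in which none of the 4 passed.

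The other genes with the highest values per transcript length included the glutathione transferases GSTU19 and GSTF8, SAG24, and the glutamate dehydrogenase GDH2. GSTF8 read 18.22 and 17.83 in FGF and 18.41 and 17.58 in E1728G, and the 90% intervals of the 4 genes lay between -1.13 and 1.48. None of them passed the test of a difference.

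The 4 guard cell transcription factors all had negative differences and none passed, with a median of -0.72. MYB60, a guard cell factor of stomatal opening, read 8.93 and 9.68 in FGF and 7.91 and 8.59 in E1728G (-1.06 ± 0.83). AGL16 read 7.69 and 7.62 and then 6.80 and 6.46, also without overlap. SCAP1, a DOF factor of guard cell maturation, read 8.12 and 8.14 in FGF and 7.83 and 7.60 in E1728G, within 2 log2 units by the margin test.

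Genes of light and carbon dioxide signalling were close to even, with 8 positive and 7 negative differences of 15 and a median of 0.00. Within 2 log2 units lay 8 of the 15, against 68.5% of all genes described, a share that falls with the level. HT1, the kinase that holds back the closing response at low carbon dioxide, read 8.46 and 9.002 in FGF and 9.11 and 8.00 in E1728G. Its mean was 8.73 in FGF and 8.56 in E1728G, and 4.79 in MG, from which E1728G differed by 3.76 (limma adjusted p = 0.0319), while the difference of HT1 in E1728G from SSY did not pass (2.51, adjusted p = 0.0648). MPK12, a kinase that inhibits HT1, read 8.68 and 8.87 and then 9.05 and 8.79. AT4G22790, a transporter of the MATE efflux family, was within 1 log2 unit, with an interval of -0.84 to 0.94.

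Members of this list with the largest negative differences were the carbonic anhydrase CA4 and the blue light kinase BLUS1. CA4 read 9.61 and 11.21 in FGF and 8.56 and 8.52 in E1728G (-1.87 ± 0.77, unadjusted p = 0.028, limma adjusted p = 1). BLUS1 read 6.05 and 7.01 and then 4.03 and 6.08, with overlap.

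Among 29 abscisic acid signalling genes 20 had a negative and 9 a positive difference, with a median of -0.15, and none passed. Within 2 log2 units lay 7 of the 29, against 68.5% of all genes described, a share that falls with the level. The receptor PYL6 read 7.79 and 7.13 in FGF and 6.12 and 6.32 in E1728G, and the receptor PYL2 read 7.01 and 7.26 and then 7.25 and 6.90. OST1, the kinase that activates SLAC1, read 8.88 and 11.29 in FGF and 9.31 and 9.92 in E1728G, the latter inside the former. The phosphatase HAB2 (8.90 and 9.33, then 7.27 and 8.39) and the calcium-dependent kinase CPK21 (8.60 and 9.38, then 6.77 and 7.52) were lower without overlap. Of 10 stress response genes under abscisic acid none passed. COR15A read 4.52 and 4.21 in FGF and 8.75 and 4.54 in E1728G, so its difference of 2.28 ± 1.098 came from 1 library.

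Wall genes numbered 11, with a median of -0.46, no call and 6 members within 2 log2 units. Of all genes described 68.5% met that margin, a share that falls with the level. PGX1, a pectin-degrading polygalacturonase, read 5.28 and 5.01 in FGF and 5.49 and 5.07 in E1728G, with a 90% interval of -0.70 to 0.96. AT2G16630, a member of the wall list, read 11.59 and 11.60 and then 11.51 and 11.73. The cellulose synthase subunit CESA3 read 9.65 and 9.97 in FGF and 7.47 and 9.26 in E1728G, and the xyloglucan transferase TCH4 read 6.66 and 7.88 and then 5.86 and 6.14. Both were lower without overlap and did not pass.

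No division gene passed. Of 23 genes of mitosis and cytokinesis 14 had a negative and 9 a positive difference, with a median of -0.22. Within 2 log2 units 13 were shown to lie, against 68.5% of all genes described, a share that falls with the level. The mitotic cyclin CYCB1;1 read 5.53 and 5.87 in FGF and 5.36 and 5.09 in E1728G. CYCB1;2 read 6.53 and 8.49 and then 6.27 and 5.80 (-1.48 ± 0.70), and CYCB2;4 read 8.65 and 7.67 and then 10.22 and 8.79. These differences had opposite signs, and neither passed.

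Of 14 replication genes 10 lay within 2 log2 units, against 68.5% of all genes described, and the median was 0.09. In 3 of them the 90% interval lay within 1, against 8.92% of all genes described. The helicase subunit MCM4 read 5.77 and 5.80 in FGF and 5.96 and 5.62 in E1728G. The licensing factor CDT1A read 6.79 and 5.12 and then 4.78 and 4.86. Of 11 measured D-type cyclins and CDK inhibitors 10 lay within 2 log2 units. Of all genes described 89.2% with a mean under 5 and 64.8% from 5 to 8 did so, and the count alone does not set this list apart. The exception was CYCD3;3, at 5.70 and 5.14 in FGF and 3.73 and 4.23 in E1728G (-1.43 ± 0.47, unadjusted p = 0.00831, limma adjusted p = 1). Of 11 guard mother cell genes 7 lay within 2 log2 units, again against 68.5% of all genes described. CDKA;1 had the largest positive difference of these 11: it read 5.34 and 5.02 and then 6.25 and 6.39 (1.14 ± 0.55).

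**Figure D4:**
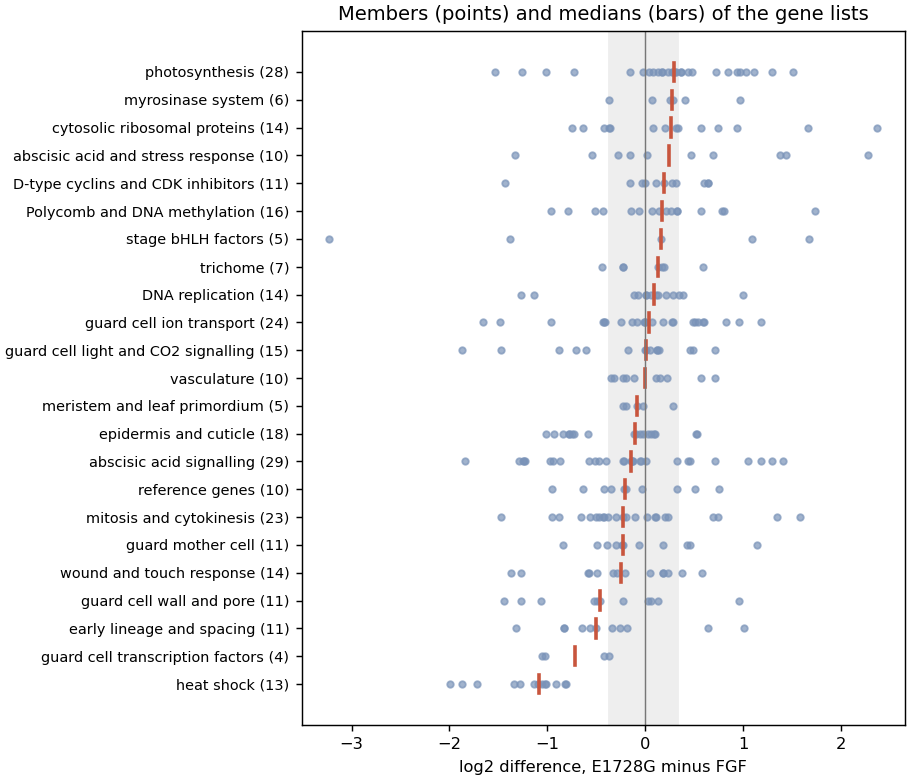
Log2 differences of the members (points) and the median (bars) of each of the gene lists other than the 3 chosen after values were seen, with the number of members in brackets and the middle 50% of all genes described, -0.37 to 0.33, in grey. No member of the lists drawn passed the test, and among them the heat shock list lies lowest with a median of -1.09 and photosynthesis highest with 0.30.

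Markers of other cell types were compared because a sort can carry over neighbours. The 28 photosynthesis genes are not particular to mesophyll, so their levels do not tell carried-over cells from the sorted cells themselves. Of these 28 genes 22 differed upward, the median was 0.30 and none passed. Their summed level was 14.82 and 14.70 in FGF and 15.32 and 14.84 in E1728G as log2, against 18.90 and 19.32 in ML1Y. In SSY it was 15.25, 15.05 and 14.31, and in MG 14.85 and 14.65. The low level beside ML1Y was therefore not particular to FGF and E1728G. LHCB1.3, an antenna protein of photosystem II, read 11.29 and 10.56 in FGF and 13.27 and 11.60 in E1728G (1.51 ± 0.83), and SBPASE, a Calvin cycle enzyme, read 7.14 and 7.80 and then 5.90 and 5.97. The LHCB1 genes are close copies, among which the split of reads is uncertain. In bulk samples fewer cells of a type and less RNA per cell cannot be told apart.

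All 10 vasculature markers and all 5 meristem markers lay within 2 log2 units, among which XCP1, a xylem protease, read 4.35 and 4.68 in FGF and 4.76 and 4.50 in E1728G. The means of all members of both lists were under 8, where 89.2% (under 5) and 64.8% (5 to 8) of genes met the margin. Of 7 measured trichome genes 6 met it. Of 18 measured epidermis and cuticle genes 12 had a negative difference, with a median of -0.11. The epidermal factor ATML1 read 8.53 and 8.23 in FGF and 7.41 and 8.18 in E1728G, and CER6, an enzyme of wax synthesis, read 11.91 and 12.54 and then 12.72 and 12.78.

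Heat shock genes had negative differences in all 13 members, with a median of -1.09, and none passed. In 5 of the 13 both E1728G libraries lay below both FGF libraries, against a share of 16% of all genes described, and the list was not tested against that share. HSP70 read 19.51 and 18.31 in FGF and 16.60 and 19.18 in E1728G, HSP90.1 read 19.06 and 18.24 and then 16.13 and 18.89, and HSP101 read 17.85 and 16.53 and then 14.69 and 17.50. In each the second E1728G library lay within the FGF range and the first lay below it. The median over the 13 genes was 15.46 and 14.85 in FGF and 12.84 and 14.73 in E1728G. Without E1728G replicate 1 the median difference was -0.20, and without E1728G replicate 2 it was -2.31. These proteins respond to heat and other stress, and the part of tissue digestion and sorting in their levels was not tested.

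**Figure D5:**
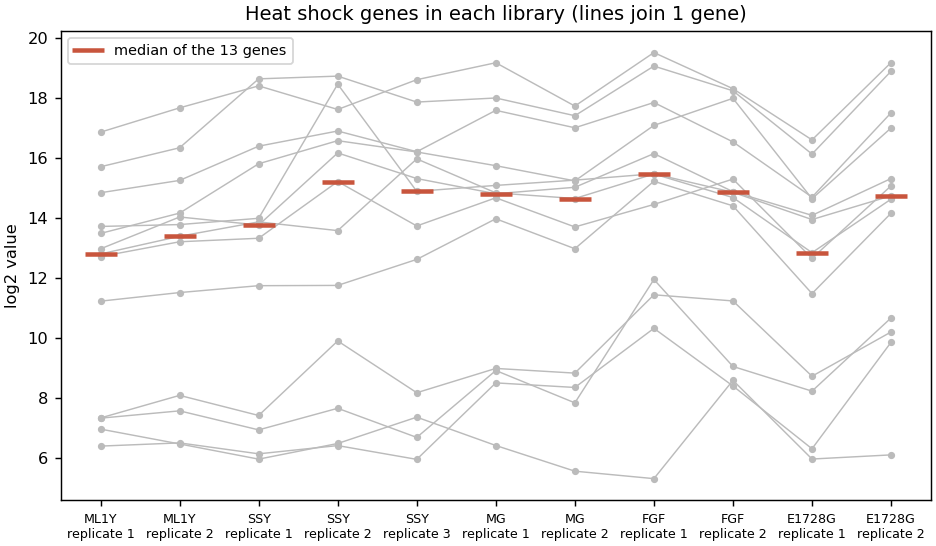
Log2 values of the 13 heat shock genes (points joined by a line per gene) in each of the 11 libraries, with the median of the 13 as a red bar. E1728G replicate 1 has a median of 12.84, near the 12.80 of ML1Y replicate 1, while E1728G replicate 2 stands at 14.73, beside FGF replicate 2 at 14.85.

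Other lists set beside these held no call. Of 14 wound and touch genes the median was -0.25, and the jasmonate repressor JAZ1 read 16.21 and 17.26 in FGF and 16.71 and 17.22 in E1728G. Of 14 cytosolic ribosomal protein genes the median was 0.26, with RPS5B at 6.46 and 5.38 and then 9.28 and 7.30 (2.37 ± 0.80). Of 16 Polycomb and DNA methylation genes the median was 0.18. Within 2 log2 units lay 9 of the 16, against 68.5% of all genes described, a share that falls with the level. SWN, a Polycomb methyltransferase, read 7.44 and 7.91 in FGF and 11.18 and 7.63 in E1728G, high in 1 library. Of 10 common reference genes 5 lay within 2 log2 units, against the same 68.5%. Among these 5 were UBQ10 (14.99 and 14.16, then 15.01 and 14.80) and GAPC1 (15.32 and 15.11, then 15.13 and 15.24).

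For scale, the same fit over 29853 genes called 18 genes higher and 23 lower in FGF than in MG (0.0603% and 0.077%), 99 higher and 75 lower in E1728G than in MG (0.332% and 0.251%), and 522 higher and 112 lower in MG than in SSY (1.75% and 0.375%). These comparisons share libraries with the present one, and their counts were not tested against it.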

How the data were processed

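RNA was sequenced in 11 libraries of protoplasts sorted from 5 marker lines, grouped by the titles. The authors deposited 1 table of log2 expression values of 33602 genes, normalized over the libraries; per the submitters' processing notes, which give no versions, DESeq2, Bowtie2 and the build TAIR10 were used. The transformation, the counter and its strand setting are not stated in any source used here, and the base of 2 was inferred from the scale of the values. Read depth is therefore unknown, and no counting interval is given. The 2 genes without values were left out.

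Genes at a linear value of 10 or more in at least 2 of the 11 libraries (29853) were fitted with the trended variances of limma 3.58.1 in R 4.3.3, as means per group with no covariate, two-sided tests, Benjamini-Hochberg adjustment over the 29853 genes, threshold 0.05. The 28108 genes described reach it in at least 2 of the 4 libraries of FGF and E1728G. A pair of one-sided tests with the same variances used margins of 1 and 2 log2 units. The procedure was tested on simulated data. Differences are log2 ± SE of the fit, which gives each gene 1 spread for all groups.

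The members and lists were chosen with earlier results of these data known. Named genes are the stage factors, all genes past the threshold, the 10 genes in each direction with the largest difference that did not pass (with a symbol, no overlap of groups and a level at or above the median of group means), those with the smallest p of the margin test, list members with the smallest p of either test, and the 10 with the highest value per transcript length. Further list members were named for their roles after their values were seen. Names, overlaps and transcript lengths came from the RefSeq annotation TAIR10.1, matched by locus code for 32835 genes. Alternatives changed the libraries in the fit, pseudocount, filter, scaling, variance trend, replicate block and each left-out library. Figures were drawn with matplotlib 3.10.9.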

Additional observations from a re-analysis of the deposited data

How the results depend on the processing

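The count of 3 higher genes was 0 in the fit of only the 4 libraries compared and in the fit without SSY, 1 without a mean trend in the variances, and 0 to 79 when 1 library was left out. In the remaining alternatives, which were 1 added on the linear scale, no filter, a minimum of 50, adjustment over the genes described, quantile normalization and equal medians, it was 2 or 3. TIM17-1 passed in 10 of 15 alternatives, AT3G12502 in 11 and GRP9 in 5, and all 3 had a positive difference in all 15. The count of 0 lower genes was 1 with 1 added on the linear scale, and 0 to 13 when 1 library was left out. The 2507 genes with a 90% interval within 1 log2 unit became 6794 in the 4 libraries alone, 6099 without SSY, 508 with a minimum of 50, and 30 to 81 when 1 library was left out. The 19240 genes within 2 log2 units became 8901 with a minimum of 50, which kept 18929 genes, and 0 to 5522 when 1 library was left out; the alternatives of this count and of the heat shock median were chosen after seeing the data. The replicate numbers went with no shared deviation: the deviations of replicate 1 from the group mean correlated at -0.00339 between the groups over genes. That value cannot tell whether libraries of the same number were prepared together, which the labels do not say. With a replicate block the counts of higher genes were 2 in all libraries and 0 in the 4 libraries alone, and 4685 genes had an interval within 1 log2 unit in the latter. Of 2485 values of 168 named genes under the alternatives, 2452 kept their side of the threshold or stayed within the replicate spread. Of the rest, 19 lost the call, 10 gained one, 4 moved by more than the spread and 0 changed sign after a call. The cause of these changes was not tested. For genes without a call the count of 2452 was largely fixed in advance and is no sign of robustness. Changing the other libraries, filter, adjustment, trend or block leaves a difference as it is. Leaving out 1 of the 2 libraries of a group moves it by less than the larger replicate spread. With 2 libraries a group and a median SE of 0.645, 3 of the 298 genes that differed by at least 2 log2 units passed. The smallest of these 3 differences was that of GRP9, at 10.1-fold, and FAMA at 9.36-fold lower did not pass. Larger differences also did not pass, such as HCHIB at 55.98-fold higher and HEI10 at 16.93-fold lower, so passing did not follow from size alone.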
